A study of Mus musculus with 27 samples.

Results

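The nuclear genes for subunits of the mitochondrial respiratory chain and ATP synthase were followed in the colon of mice that lack interleukin 10. The members were all genes whose annotated symbol begins with Nduf (complex I), Sdha to Sdhd (complex II), Uqcr (complex III), Cox4 to Cox8 (complex IV) or Atp5 (ATP synthase). Each gene was read from 1 probe set that carries a single symbol, the one with the highest mean over all arrays. The rule gave 94 of the 18193 genes measured. They comprised 34 subunits of complex I (6 core and 28 accessory), 4 of complex II, 8 of complex III, 11 of complex IV, 17 of ATP synthase, 12 assembly factors and 8 isoforms that are known from particular tissues. The first 5 classes hold 74 genes that nearly all cells use and are called the ubiquitous subunits here.

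RNA from the whole thickness of the colon wall was hybridised to 27 Affymetrix arrays, and the deposited values are log2 expression. The mice were Il10-/- animals in conventional housing (labelled CC), Il10-/- animals in specific pathogen free housing (SPF) and wild types in conventional housing (WT), each at 7, 9 and 12 weeks of age, with 3 arrays per group. Il10 encodes a cytokine that restrains inflammation of the gut, and the arrays of each group were picked by the submitters by colon length and colonic damage. The code CC was read by elimination, because the design names conventional knockouts and no other label is left for them. The strain, the knockout allele and whether a sample holds 1 animal or a pool are likewise not stated, so p-values measure the spread between arrays. No wild types in SPF housing were among the samples, so a difference of SPF knockouts from wild types changes genotype and housing together.

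The respiratory chain passes electrons from NADH and succinate to oxygen through complexes I to IV and pumps protons across the inner mitochondrial membrane, and ATP synthase uses the gradient to make ATP. Most subunits are encoded in the nucleus, and assembly factors join them to the subunits that mitochondrial DNA encodes. Colonocytes, the absorptive cells of the colon surface, are known for oxidising butyrate, a product of bacterial fermentation, through this chain.

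Array medians lay between 4.92 and 4.99. The tissue carried colon markers: the lowest array read 11.18 for Car1, 10.10 for Slc26a3 and 12.50 for Muc2, whereas Lct, a small intestinal gene, read at most 3.12. The Il10 probe set read 4.66 to 7.09 in the 18 knockout arrays and 3.51 to 3.83 in the 9 wild-type arrays. Its position relative to the disrupted part of the gene is not given, so it does not check the genotype. Inflammation markers varied within groups. The mean of 9 neutrophil markers read 6.68, 4.81 and 7.35 in the SPF knockouts at 12 weeks, so replicate 2 stood apart, and 3.83, 4.09 and 5.56 at 9 weeks, where replicate 3 did. In the wild types at 12 weeks, replicate 2 had the largest gap between the 3' and 5' actin control probe sets, 0.95 log2 units against at most 0.72 on the other 26 arrays.

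The ubiquitous subunits kept a nearly level mean across the groups. The mean over the 74 genes was 11.25 ± 0.05 (SD, n = 3 arrays), 11.22 ± 0.03 and 11.35 ± 0.07 in wild types at 7, 9 and 12 weeks. It was 11.27 ± 0.03, 11.29 ± 0.03 and 11.32 ± 0.03 in conventional knockouts, and 11.34 ± 0.03, 11.32 ± 0.02 and 11.25 ± 0.12 in SPF knockouts. The widest spread belonged to the SPF knockouts at 12 weeks, whose arrays read 11.21, 11.38 and 11.14, with replicate 2 inside the range of the wild types of that age, 11.27 to 11.39. Gene by gene, the 9 group means of a ubiquitous subunit spanned a median of 0.29 log2 units, and none of the 74 spanned more than 1. Over all 18193 genes the median span was 0.42, and 12.3% spanned more than 1. Of the 94 members only Cox7a1 (1.77), Ndufaf4 (1.06) and Ndufaf5 (1.00) spanned more than 1, and none of these is a ubiquitous subunit.

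**Figure D1:**
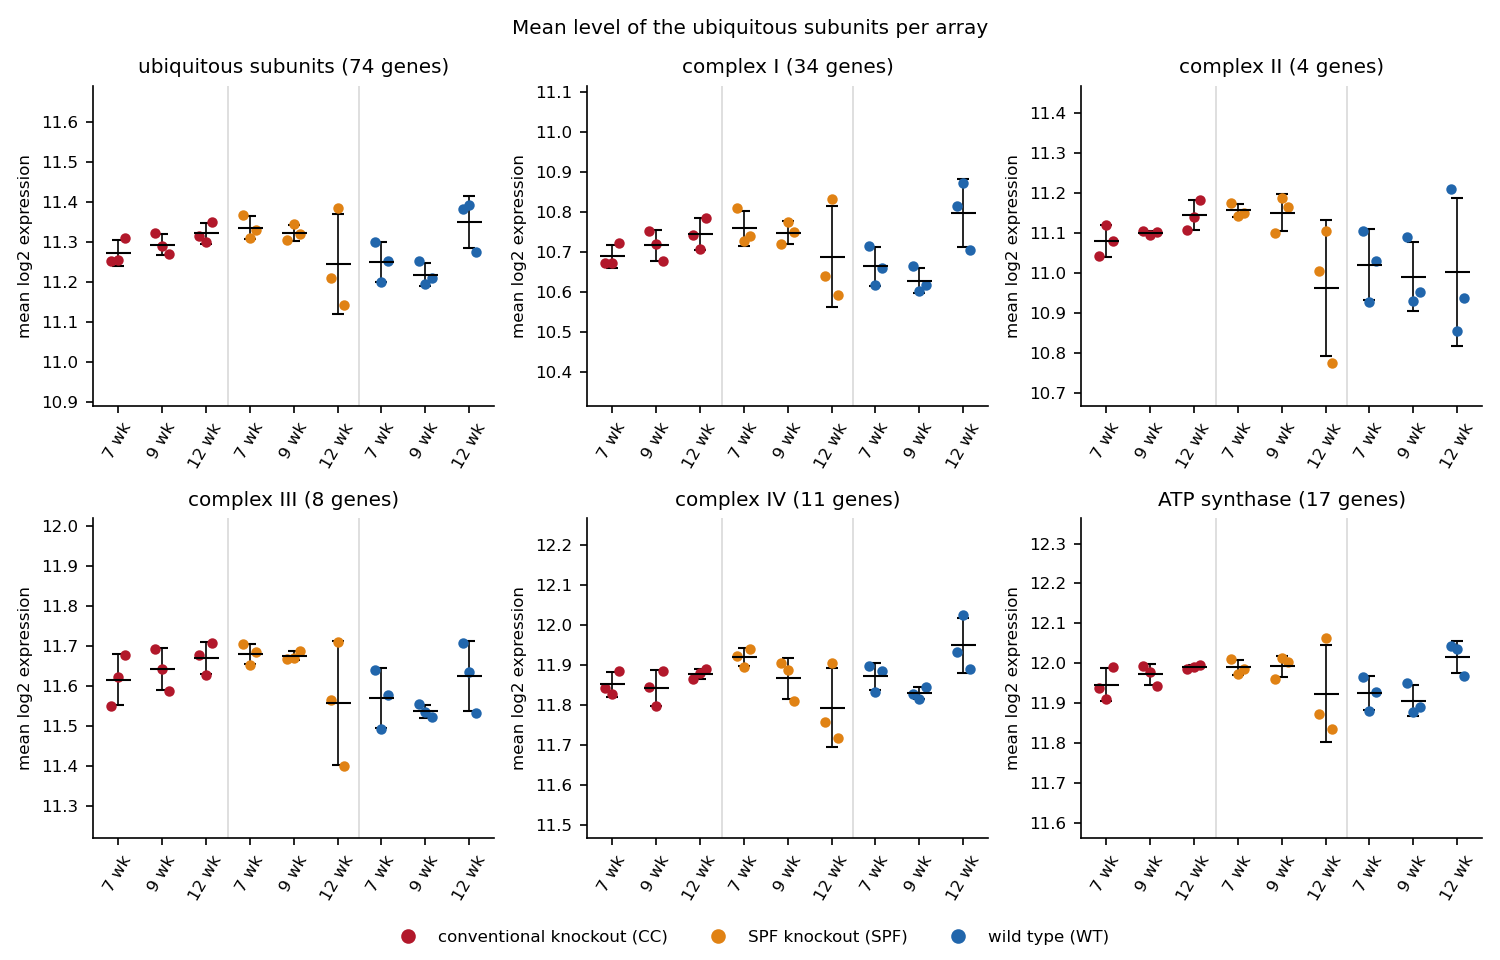
Mean log2 expression of the ubiquitous subunits in each array, for all 74 genes and by complex, with each vertical axis spanning 0.8 log2 units. Points are arrays coloured by kind of mouse, bars are group means and lines are SDs (n = 3). The group means of all 74 genes lie between 11.22 and 11.35, and the SPF knockouts at 12 weeks are the most scattered.

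By complex, the 9 group means lay within 10.63 to 10.80 for complex I, 10.96 to 11.16 for complex II, 11.54 to 11.68 for complex III, 11.79 to 11.95 for complex IV and 11.91 to 12.02 for ATP synthase. Complex I averaged 10.63 in wild types at 9 weeks, 10.72 in conventional knockouts and 10.75 in SPF knockouts of that age. Complex II averaged 10.99, 11.10 and 11.15 in the same groups, complex III 11.54, 11.64 and 11.68, and ATP synthase 11.91, 11.97 and 11.99. At 12 weeks complex IV, the cytochrome c oxidase that hands electrons to oxygen, averaged 11.95 in wild types and 11.79 in SPF knockouts, whose arrays read 11.76, 11.91 and 11.72. These are means over members and carry no test.

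Against wild types at 9 weeks, conventional knockouts had 11 members higher and 3 lower. A gene was called when its Benjamini-Hochberg adjusted p in limma, over all 18193 genes of a comparison, was under 0.05. The background was large: 24% of all genes were called in this comparison, 14.2% higher and 9.86% lower, and the members' share of 14.9% lay below it. The arrays of the 2 groups did not overlap for 41 members and for 42.5% of all genes. The rises were small. Only Ndufaf4 (0.88 ± 0.19, log2 difference ± SE), Ndufaf5 (0.65 ± 0.16) and Ndufb1 (0.56 ± 0.12) exceeded 0.5, and the median member differed by 0.07 against 0.00 for all genes. For 66 of the 74 ubiquitous subunits the 95% interval of the difference lay within 1.5-fold either way. Leaving out replicate 1 of the conventional knockouts left 4 calls, and leaving out replicate 2 or 3 of the wild types left 9 each.

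SPF knockouts at 9 weeks had 9 members higher and 2 lower than wild types, 11.7% of members beside 11.8% of all genes (7.41% higher and 4.43% lower). The arrays did not overlap for 51 members and for 37.4% of all genes. This comparison shares its wild-type arrays with the one above. The 3 largest rises were assembly factors, Ndufaf4 by 0.82 ± 0.19, Ndufaf5 by 0.68 ± 0.16 and Ndufaf6 by 0.57 ± 0.17, followed by the ATP synthase gene Atp5g1 by 0.49 ± 0.13 and the assembly factor Ndufaf1 by 0.45 ± 0.11. Cox7a2l, a protein that links complexes III and IV, fell by 0.36 ± 0.11, and the testis-type isoform Cox8c fell by 0.53 ± 0.17, with values that lie low on the scale at 6.16, 6.11 and 6.24 against 6.61, 6.58 and 6.89. The Cox8c call was lost without any 1 of the 6 arrays (-0.43 to -0.58). The counts rested on single arrays: without SPF replicate 3 none was called, without wild-type replicate 2 or 3 there were 3, and without SPF replicate 2 or wild-type replicate 1 there were 5. Fitted on these 2 groups alone, 3 were called. The direct comparison of the conventional with the SPF knockouts at 9 weeks called 0 members and 0% of all genes with limma, with 2 members higher and 0 lower with p under 0.05 before adjustment (2.13% of members and 8.07% of all genes).

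**Figure D2:**
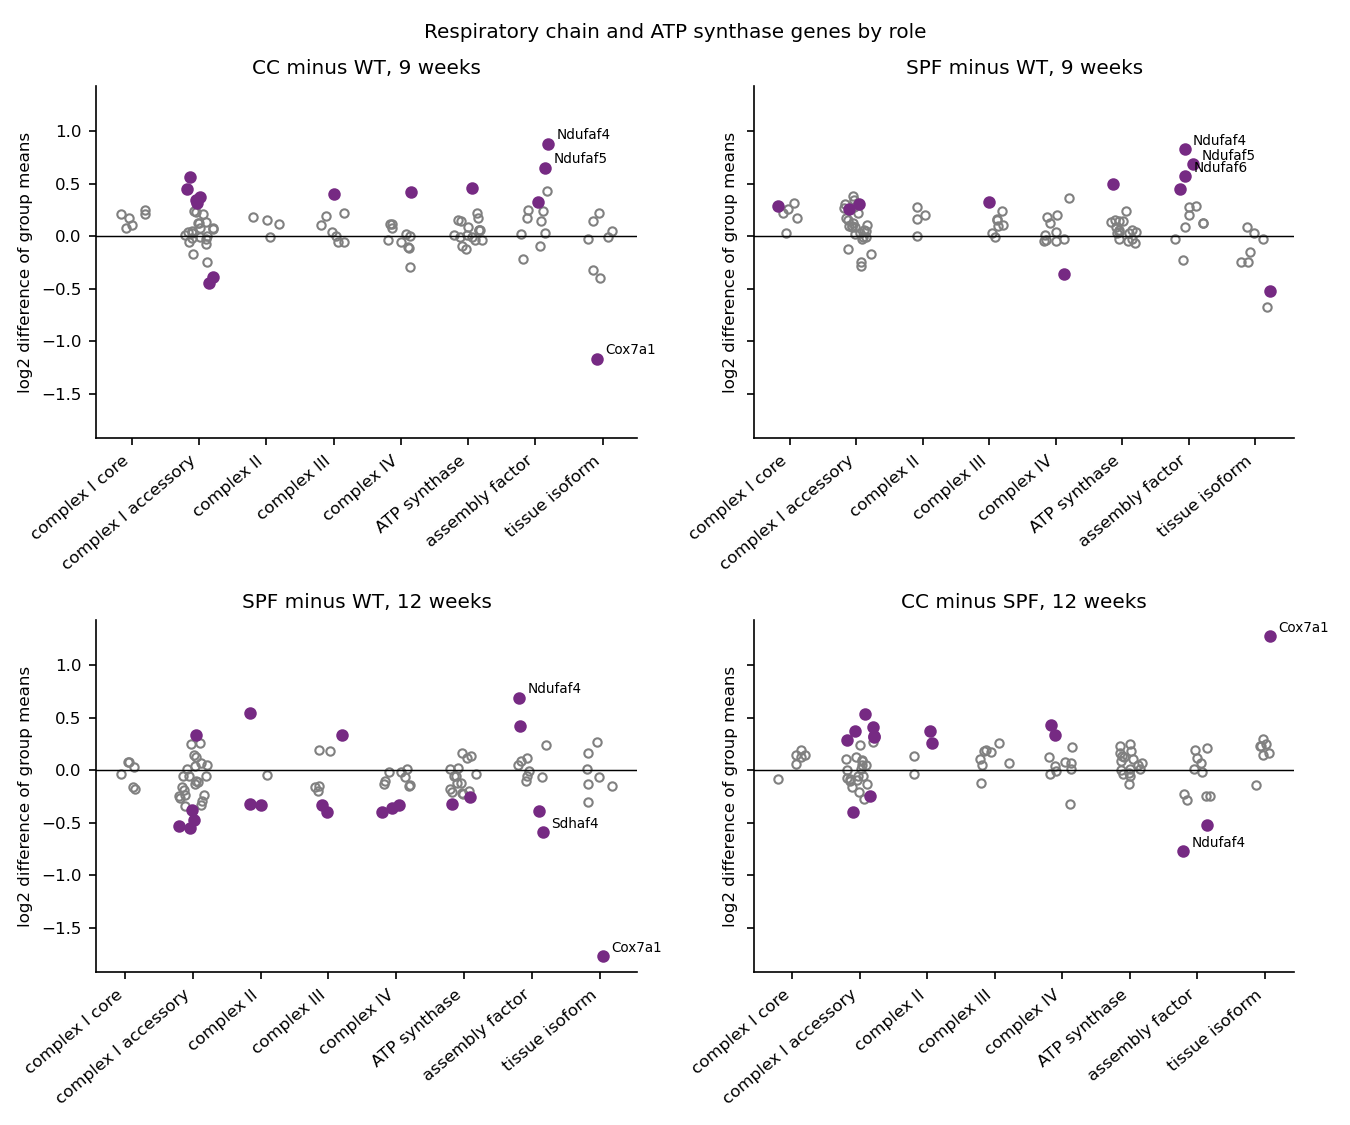
Log2 differences of the 94 members by role in 4 comparisons of group means, 1 point per gene, with filled points called at an adjusted p under 0.05 and open points not called. Names mark called genes beyond 0.57 log2 units. Most subunits lie close to 0, assembly factors Ndufaf4 and Ndufaf5 lie above it in both knockouts at 9 weeks, and Cox7a1 is the lowest point for SPF knockouts at 12 weeks at -1.77.

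At 12 weeks the SPF knockouts had 5 members higher and 16 lower than wild types, 22.3% of members, while 34.8% of all genes were called (18.2% higher and 16.6% lower). The arrays did not overlap for 16 members and for 33.5% of all genes. The lower members came from every class except the complex I core: 4 accessory subunits of complex I, 2 subunits of complex II, 2 of complex III, 3 of complex IV, 2 of ATP synthase, 2 assembly factors and the isoform Cox7a1. Apart from Cox7a1, the falls lay between -0.25 (Atp5h) and -0.59 (Sdhaf4) on the log2 scale. The higher members were Ndufaf4, Sdhc, Ndufaf5, Uqcrq and Ndufb1. The median member differed by -0.10 and the median gene by 0.02, and 64 of the 74 ubiquitous subunits had 95% intervals within 1.5-fold. Without SPF replicate 2, 38 members were called, against 11 without replicate 1 and 12 without replicate 3. Replicate 2 had the lowest neutrophil marker mean of the 3 SPF arrays, 4.81, which was still above the 3.80 to 3.90 of the wild types. Fitted on these 2 groups alone, 0 members were called. Some members called here were not called between conventional and SPF knockouts of 12 weeks, so they are not shown to be particular to SPF knockouts. Conventional minus SPF was 0.10 for Ndufa13, 0.07 for Atp5l, 0.19 for Sdhaf4 and -0.04 for Sdhc. Others, such as Cox7a1 and Ndufa1, were called in both comparisons.

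The wild types of 9 and 12 weeks are the reference arrays of these comparisons. Their median member differed by 0.15 between these ages, against 0.00 for all genes, and at an unadjusted p under 0.05 there were 33 members up and 3 down, 38.3% of members beside 12.7% of all genes. With limma's adjusted p, 0 members and 0% of all genes were called between 9 and 12 weeks in wild types. The change of the difference between SPF knockouts and wild types from 9 to 12 weeks had a member median of -0.22, and again 0 members and 0% of all genes were called. Before adjustment 1 was higher and 23 lower, 25.5% of members beside 13.3% of all genes. Without SPF replicate 2 of 12 weeks, 17 members were called in that change.

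Conventional and SPF knockouts parted at 12 weeks. There 11 members were higher and 4 lower in conventional knockouts, 16.0% of members beside 24.6% of all genes (11.1% higher and 13.6% lower). The arrays did not overlap for 22 members and for 31.1% of all genes. The largest rises were Cox7a1 (1.28 ± 0.30), Ndufa1 (0.54 ± 0.12), Cox8a (0.43 ± 0.11) and Ndufa6 (0.41 ± 0.14), and the falls were Ndufaf4 (-0.78 ± 0.19), Ndufaf5 (-0.53 ± 0.16), Ndufb1 (-0.40 ± 0.12) and Ndufb7 (-0.25 ± 0.09). Cox8a differed by 0.28 (adjusted p = 0.108) without SPF replicate 3, and Ndufa6 by 0.63 without SPF replicate 2, whereas its call was lost without any other array of the pair. Without SPF replicate 3 only 1 member was called and without replicate 1 there were 5, against 27 without replicate 2. Leaving out conventional replicate 1, 2 or 3 left 8, 6 and 6, and the fit on these 2 groups alone called 0.

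At 7 weeks no member was called between any of the kinds of mice with limma. Of all genes, 0.506% were called between conventional knockouts and wild types, 0.055% between SPF knockouts and wild types and 0.269% between the knockouts. Before adjustment, p was under 0.05 for 2 members higher and 1 lower in conventional knockouts (3.19% of members and 11% of all genes), 3 higher and 0 lower in SPF knockouts (3.19% and 5.06%), and 0 and 0 between the knockouts (0% and 5.32%). At 12 weeks the conventional knockouts again had 0 members called against wild types, beside 0.451% of all genes. At an unadjusted p under 0.05 there were 8 on either side, 17% of members beside 15.7% of all genes. Without wild-type replicate 1, 4 members were called there. Each of the 3 comparisons at 7 weeks left every ubiquitous subunit but 1 with a 95% interval within 1.5-fold, the exception lying in SPF knockouts against wild types, and for conventional knockouts at 12 weeks 71 of 74 lay within it.

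Averaged over the 3 ages, SPF knockouts had 20 members higher and 6 lower than wild types, 27.7% of members beside 35.2% of all genes (19.2% higher and 16% lower). Conventional knockouts had 7 higher and 3 lower, 10.6% of members beside 18.4% of all genes (11.4% higher and 7.02% lower). Averages pool 9 arrays a side, and the changes called were as small as 0.13 in SPF knockouts. This was the size for Atp5d and for Atp5g3 (± 0.04), a gene for the ring subunit c of ATP synthase. The Atp5d call was lost in 12 of the 18 fits that leave out 1 array, and the Atp5g3 call in 0. Conventional and SPF knockouts did not separate in the average, where 0 members and 0% of all genes were called, with 0 higher and 4 lower with p under 0.05 before adjustment (4.26% of members and 9.51% of all genes). In the average of conventional knockouts against wild types, 5 members were called without replicate 3 of the 7-week conventional knockouts, and 6 each without replicate 2 of the 7-week wild types or replicate 1 of the 9-week conventional knockouts. Without SPF replicate 2 of 12 weeks, 3 members were called in the average of conventional against SPF knockouts.

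Assembly factors held the largest rises. Ndufaf4, which is needed to build complex I, read 10.06, 9.65 and 9.71 in conventional knockouts at 9 weeks and 9.61, 9.62 and 10.02 in SPF knockouts, against 8.92, 8.96 and 8.90 in wild types. Every knockout array of 9 weeks lay above every wild-type array (adjusted p = 0.00238 for conventional and 0.00883 for SPF knockouts, limma). At 12 weeks it read 10.19, 9.52 and 10.25 in SPF knockouts and 9.28, 9.73 and 8.88 in wild types, so the groups overlapped (0.69 ± 0.19, adjusted p = 0.00712). Conventional knockouts of 12 weeks read 9.14, 9.29 and 9.20. A second Ndufaf4 probe set moved less, by 0.32 in conventional and 0.37 in SPF knockouts at 9 weeks. Without SPF replicate 3 of 9 weeks the SPF difference was 0.69 with an adjusted p of 0.0849.

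Ndufaf5, an enzyme that modifies a core subunit of complex I during assembly, read 7.48, 7.10 and 6.76 in conventional knockouts and 7.00, 7.19 and 7.23 in SPF knockouts at 9 weeks. Wild types of that age read 6.56, 6.49 and 6.33, below all 6 knockout arrays (adjusted p = 0.00544 and 0.00943). SPF knockouts at 12 weeks were the highest group at 7.45, 7.38 and 7.56, above wild types at 7.05, 7.28 and 6.80 (0.42 ± 0.16, adjusted p = 0.0437). The conventional difference missed the threshold without conventional replicate 1 (0.47, adjusted p = 0.0579), and the SPF difference at 9 weeks without SPF replicate 3 (0.64, adjusted p = 0.0705). The call at 12 weeks ended without SPF replicate 1 or 3 (0.42 and 0.37, adjusted p = 0.0928 and 0.136) and without wild-type replicate 1 or 3 (0.42 and 0.30, adjusted p = 0.0798 and 0.199).

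Other assembly factors moved apart. Ndufaf6 read 6.70, 6.95 and 7.09 in SPF knockouts at 9 weeks against 6.59, 5.99 and 6.44 in wild types, a call lost without SPF replicate 2 or 3 or wild-type replicate 2 or 3 (0.40 to 0.62). Ndufaf1, a part of the complex that builds the membrane arm of complex I, rose by 0.32 ± 0.11 in conventional knockouts at 9 weeks, and by 0.21 (adjusted p = 0.228) without wild-type replicate 2. Ndufaf7, a methyltransferase for a core subunit, read 7.44, 7.33 and 7.21 in SPF knockouts at 12 weeks against 7.86, 7.66 and 7.65 in wild types, with no overlap (-0.39 ± 0.10, adjusted p = 0.00346). Sdhaf4, which helps to assemble complex II, fell by 0.59 ± 0.17 there, but its size turned on 1 wild-type array. The wild types read 8.70, 9.56 and 8.65, and without replicate 2 the difference was -0.29 (adjusted p = 0.0833). Of the 12 assembly factors, 3 were higher and 0 lower in conventional knockouts at 9 weeks, 4 and 0 in SPF knockouts at 9 weeks, and 2 and 2 in SPF knockouts at 12 weeks, where 24%, 11.8% and 34.8% of all genes were called. Markers of dividing cells moved at the same times. Of 7 measured, 6 were higher in each of these 3 comparisons, and their mean read 8.95 to 9.47, 8.84 to 9.33 and 8.98 to 9.64 in the 3 knockout groups against 8.05 to 8.29 and 8.25 to 8.59 in wild types of 9 and 12 weeks. Their part in the assembly factor values was not tested. In bulk tissue, a change in the number of cells of a type and a change in RNA per cell cannot be told apart.

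**Figure D3:**
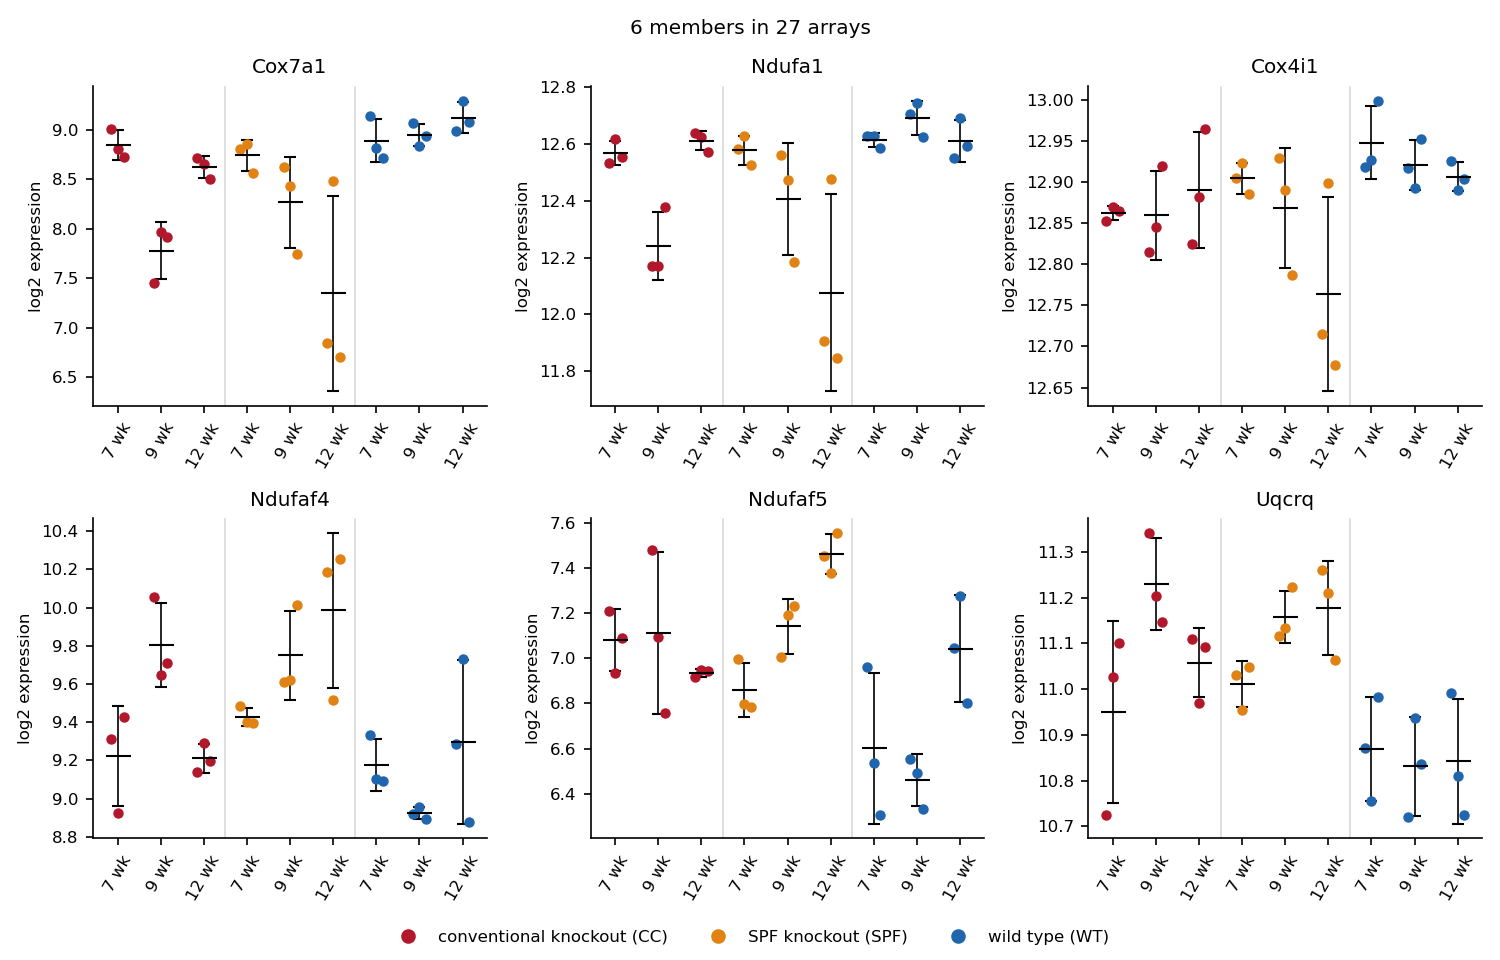
Log2 expression of 6 members in all 27 arrays, with a separate vertical scale for each gene. Points are arrays, bars are group means and lines are SDs (n = 3). Cox7a1 and Ndufa1 are low in conventional knockouts at 9 weeks and SPF knockouts at 12 weeks, Ndufaf4 and Ndufaf5 are high there, and Cox4i1 stays between 12.68 and 12.999 in every array.

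Ndufaf4 and Ndufaf5 were also among the 6 members whose promoter holds an exact copy of the palindrome that is the recognition sequence of nuclear respiratory factor 1, a transcription factor known for binding promoters of respiratory genes. Promoters were taken from RefSeq (GRCm38.p6), 300 bases long and reaching just past the start of transcription, and 78 of the 94 members matched an entry. The exact copy stood in 6 of these (7.69%) and in 290 of all 27025 genes (1.07%). The 27025 are all genes with such an entry, measured on the arrays or not, so they differ from the background used for calls. Shares of all genes for the other sequences use the same set. The 6 copies are shown because 2 of them stand in the promoter windows of Ndufaf4 and Ndufaf5, the members with the largest rises at 9 weeks. Each is a 30-base stretch of the coding strand, 5′ to 3′, with the palindrome in capitals. It reads the same on both strands.
Ndufaf4, chr4:24897960-24897989, plus strand: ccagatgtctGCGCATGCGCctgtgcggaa
Ndufaf5, chr2:140170652-140170681, plus strand: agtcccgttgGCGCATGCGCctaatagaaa
Uqcrc1, chr9:108936668-108936697, plus strand: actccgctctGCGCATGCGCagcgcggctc
Atp5g2, chr15:102671070-102671099, minus strand: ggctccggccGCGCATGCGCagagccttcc
Atp5k, chr5:108434430-108434459, minus strand: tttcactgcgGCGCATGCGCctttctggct
Cox6a1, chr5:115349101-115349130, minus strand: caggaacgggGCGCATGCGCgctctcgctc

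With the sixth of its bases left free, which includes the exact copies, 19 members (24.4%) and 5.19% of all genes held a match on either strand. The letters AAGATGGC, typical of the factor YY1, stood in 10 members (12.8%) and 3.19% of genes. CCGGAAGT, an ETS-type sequence, stood in 5 (6.41%) and 4.31%, and TCAAGGTCA, typical of estrogen-related receptors, in 2 (2.56%) and 0.466%. These are matches of letters and not measured binding. Among the 6 members with the exact copy, Ndufaf4 and Ndufaf5 rose at 9 weeks, whereas Cox6a1, a subunit of complex IV, differed by 0.00 (95% interval -0.14 to 0.15) in conventional knockouts. In that comparison Uqcrc1 differed by 0.22 ± 0.11, Atp5k by 0.22 ± 0.08 and Atp5g2 by -0.04 ± 0.11, none of them called.

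Complex I accessory subunits moved in both directions. Ndufa1, a small membrane-arm subunit that complex I cannot be built without, read 12.17, 12.17 and 12.38 in conventional knockouts at 9 weeks against 12.71, 12.75 and 12.62 in wild types, with no overlap (-0.45 ± 0.12, adjusted p = 0.00959). In SPF knockouts at 12 weeks it read 11.91, 12.48 and 11.85 against 12.55, 12.69 and 12.59 (-0.54 ± 0.12, adjusted p = 0.00167). The values at 12 weeks again set SPF replicate 2 apart from the other two, and conventional knockouts of 12 weeks read 12.64, 12.62 and 12.57, inside the wild-type range. Ndufb5, another membrane-arm subunit, was lower in these comparisons (-0.39 ± 0.11 and -0.48 ± 0.11), although its second probe set differed by only -0.02 and -0.32. The first call was lost without conventional replicate 1 or 2 or wild-type replicate 1 or 3 (-0.35 to -0.36).

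Ndufb7 and Ndufa8, subunits that face the space between the mitochondrial membranes, went the other way. Ndufb7 read 11.38, 11.29 and 11.21 in conventional knockouts at 9 weeks, above wild types at 10.90, 10.98 and 10.87 (0.37 ± 0.09, adjusted p = 0.00392), and its second probe set gave 0.45. Ndufa8 read 10.84, 10.80 and 10.56 against 10.48, 10.39 and 10.38 (0.32 ± 0.08, adjusted p = 0.00825). Ndufb1, whose probe set reads low on the scale, was at 6.39, 6.53 and 6.27 against 5.83, 5.92 and 5.75, also without overlap. Ndufs4, a subunit of the arm that takes electrons from NADH, rose by 0.45 ± 0.14 on the probe set used. Its other 3 sets gave -0.10, 0.27 and 0.50, and on the average of all 4 it differed by 0.28 and the call was lost (adjusted p = 0.107). The call was also lost without conventional replicate 1 or 2 or wild-type replicate 2 or 3 (0.37, 0.45, 0.40 and 0.44). At 12 weeks Ndufa6 and Ndufa13 were lower in SPF knockouts (-0.55 ± 0.14 and -0.38 ± 0.09). Ndufa6 read 10.68, 11.34 and 10.64 against 11.37, 11.72 and 11.22, so that SPF replicate 2 lay among the wild types, and Ndufa13 read 11.67, 11.97 and 11.71 against 12.05, 12.40 and 12.04.

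None of the 6 core subunits of complex I, which carry the redox centres, was called in conventional knockouts at 9 weeks or in SPF knockouts at 12 weeks. All 6 had positive differences at 9 weeks, from 0.08 to 0.25 in conventional and from 0.03 to 0.31 in SPF knockouts, where Ndufs7, which holds the last iron-sulfur cluster of the complex, was called (0.28 ± 0.08, adjusted p = 0.0319). Its arrays read 11.06, 11.12 and 11.03 in SPF knockouts and 10.83, 10.75 and 10.78 in wild types. Leaving out any array of either group ended this call, with differences between 0.26 and 0.31. Ndufs1, the largest core subunit, differed by 0.10 (95% interval -0.11 to 0.32) in conventional knockouts at 9 weeks and by -0.18 (-0.39 to 0.04) in SPF knockouts at 12 weeks.

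Within a single age, subunits of complex II, succinate dehydrogenase, were called only at 12 weeks. Averaged over ages, Sdhc was also higher in conventional and SPF knockouts (0.26 and 0.34). The flavoprotein Sdha read 11.21, 11.18 and 10.97 in SPF knockouts and 11.55, 11.31 and 11.45 in wild types, without overlap (-0.32 ± 0.08, adjusted p = 0.00456). The iron-sulfur subunit Sdhb read 11.27, 11.67 and 10.97 against 11.76, 11.67 and 11.48 (-0.34 ± 0.12, adjusted p = 0.0358), and without SPF replicate 3 the difference was -0.17 (adjusted p = 0.3) and without replicate 2 it was -0.52. The membrane anchor Sdhc was higher by 0.55 ± 0.13 (adjusted p = 0.00229), but this turned on the wild types, which read 10.51, 9.71 and 10.02 against 10.67, 10.74 and 10.48. Without wild-type replicate 2, the array with the largest actin gap, Sdhc differed by 0.36 (adjusted p = 0.0219).

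In complex III, the small subunit Uqcrq read 11.34, 11.20 and 11.15 in conventional knockouts at 9 weeks, 11.12, 11.13 and 11.22 in SPF knockouts, and 10.72, 10.94 and 10.84 in wild types. All knockout arrays lay above the wild types of that age (0.40 ± 0.10, adjusted p = 0.00655, and 0.33 ± 0.10, adjusted p = 0.0383), and it was higher in SPF knockouts at 12 weeks as well (0.34 ± 0.10, adjusted p = 0.0123). Its other 3 probe sets are dim and differed by -0.13, 0.17 and -0.15 in conventional knockouts at 9 weeks, and on the average of all 4 sets both calls of that age were lost (0.07 and 0.02, adjusted p = 0.600 and 0.931). The SPF call at 9 weeks was also lost without SPF replicate 2 or 3 or any wild-type array (0.27 to 0.38), and the call at 12 weeks without SPF replicate 1 or wild-type replicate 3 (0.29 and 0.28). The hinge protein Uqcrh and the small subunit Uqcr10 were lower in SPF knockouts at 12 weeks (-0.40 ± 0.11 and -0.33 ± 0.10). Uqcrh was at 11.94, 12.40 and 11.94 against 12.43, 12.75 and 12.29, with SPF replicate 2 within the wild-type range, and Uqcr10 differed by -0.21 (adjusted p = 0.127) without SPF replicate 3.

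In complex IV, Cox4i1, the subunit most used as a mitochondrial loading marker, differed by -0.06 (95% interval -0.21 to 0.09) in conventional knockouts at 9 weeks and by -0.14 (-0.29 to 0.00) in SPF knockouts at 12 weeks. Ndufa4, once assigned to complex I, rose by 0.42 ± 0.14 in conventional knockouts at 9 weeks, a call lost without conventional replicate 1 or wild-type replicate 2 or 3 (0.34, 0.37 and 0.43). Cox6c, Cox7a2l and Cox8a were lower in SPF knockouts at 12 weeks (-0.40 ± 0.11, -0.36 ± 0.11 and -0.33 ± 0.11). Cox6c read 11.99, 12.42 and 11.91 there against 12.41, 12.77 and 12.35, and Cox8a read 10.84, 11.13 and 10.54 against 11.35, 10.97 and 11.18. Without SPF replicate 3 Cox8a differed by -0.18 (adjusted p = 0.247), and at 9 weeks the Cox7a2l difference of SPF knockouts was -0.21 (adjusted p = 0.314) without SPF replicate 3 of 9 weeks.

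ATP synthase had few calls, with 1 of 17 members called in each knockout at 9 weeks and 2 in SPF knockouts at 12 weeks, where 24%, 11.8% and 34.8% of all genes were called. Atp5g1, another gene for subunit c, read 11.45, 11.41 and 11.16 in conventional knockouts at 9 weeks and 11.17, 11.33 and 11.61 in SPF knockouts, above wild types at 10.95, 10.85 and 10.84 (0.46 ± 0.13 and 0.49 ± 0.13, adjusted p = 0.0162 and 0.0224). Both calls were lost when its probe set was averaged with a second one near the bottom of the scale (0.13 and 0.22, adjusted p = 0.401 and 0.162). The first was also lost without conventional replicate 1 or 2 or wild-type replicate 2 or 3 (0.40 to 0.44), and the second without SPF replicate 3 or wild-type replicate 2 or 3 (0.37 to 0.48). The catalytic subunit Atp5b differed by 0.06 (95% interval -0.13 to 0.25) in conventional knockouts at 9 weeks and by 0.02 (-0.17 to 0.21) in SPF knockouts at 12 weeks. Atp5h and Atp5l, subunits of the stalk and of the membrane part, were lower in SPF knockouts at 12 weeks (-0.25 ± 0.08 and -0.33 ± 0.12). Atp5h read 12.20, 12.48 and 12.16 against 12.53, 12.50 and 12.56, and Atp5l differed by -0.13 (adjusted p = 0.309) without wild-type replicate 2.

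Cox7a1, the isoform of cytochrome c oxidase subunit 7a known from heart and other muscle, changed most among the 94. In wild types it read 9.13, 8.82 and 8.71 at 7 weeks, 9.07, 8.84 and 8.93 at 9 weeks and 8.98, 9.29 and 9.08 at 12 weeks. Conventional knockouts read 9.01, 8.80 and 8.72 at 7 weeks, 7.45, 7.97 and 7.92 at 9 weeks and 8.71, 8.65 and 8.50 at 12 weeks. SPF knockouts read 8.81, 8.85 and 8.56, then 8.62, 8.43 and 7.75, then 6.85, 8.48 and 6.71. The conventional knockouts were lowest at 9 weeks, below every wild-type array. Those of 12 weeks read higher than those of 9 weeks but still below every wild type of 12 weeks. That difference of -0.50 was not called. Of the SPF arrays, 2 of the 3 of 12 weeks were the lowest. Groups of different ages are different animals.

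The Cox7a1 difference from wild types was -1.17 ± 0.30 in conventional knockouts at 9 weeks (adjusted p = 0.00692) and -1.77 ± 0.30 in SPF knockouts at 12 weeks (adjusted p = 0.000173). It was -0.57 ± 0.17 and -0.87 ± 0.17 averaged over ages. Without conventional replicate 1 the value at 9 weeks was -1.003 (adjusted p = 0.0519), and the value at 12 weeks lay between -1.45 and -2.34 when any 1 array was left out, always called. The average of conventional knockouts missed the threshold without replicate 3 of 7 weeks (-0.55, adjusted p = 0.0501) or replicate 1 of 9 weeks (-0.51, adjusted p = 0.0593), and the difference between knockouts at 12 weeks without SPF replicate 3 (0.96, adjusted p = 0.0534). Its ubiquitous partner Cox7a2 differed by 0.11 ± 0.08 and -0.10 ± 0.08 in the same comparisons and was not called. The 120 bases before its start of transcription on the plus strand (RefSeq, GRCm38.p6), shown because this gene has the largest difference, hold none of the 5 letter sequences searched.
Cox7a1, chr7:30184051-30184170, plus strand: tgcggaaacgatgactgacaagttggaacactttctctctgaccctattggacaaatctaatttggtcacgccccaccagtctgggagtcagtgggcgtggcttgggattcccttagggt

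Smooth muscle markers were also low where Cox7a1 was lowest. All 10 measured (among them Myh11, Acta2 and Des) were lower in SPF knockouts than in wild types at 12 weeks, with a median of -1.07, and 8 of 10 were lower in conventional knockouts at 9 weeks, with a median of -0.61. Their mean read 9.73, 10.72 and 9.36 in SPF knockouts at 12 weeks, 10.69, 10.65 and 10.60 in conventional knockouts at 9 weeks, and 11.14 to 11.42 in the wild types of all ages. In the wild types of all ages and both knockouts at 7 weeks, Cox7a1 read at least 8.56. SPF knockouts at 9 weeks had 3 of 10 smooth muscle markers lower (median -0.64), where 4.43% of all genes were called lower. Cox7a1 differed by -0.68 there and was not called. Markers of enteric neurons, glia and pacemaker cells were lower as well. Of 8 measured, 4 were lower in conventional knockouts at 9 weeks (median -0.81). In SPF knockouts at 12 weeks 6 were lower and 1 higher (median -0.91). Of all genes, 9.86% and 16.6% were called lower in these 2 comparisons. Of the markers of skeletal muscle and brown fat, where the isoform is also known, the defining genes Myh4 (2.43 to 3.02), Actn3 (3.19 to 3.69), Ucp1 (2.74 to 3.32) and Cidea (3.26 to 3.87) lay near the bottom of the scale in every array. Ckm, the muscle creatine kinase, read higher at 5.41 to 7.19, and Ppargc1a, which is on the brown fat list, read 7.26 to 10.21. Of the 11 skeletal muscle markers, 0 were called in conventional knockouts at 9 weeks, and 1 was higher and 2 lower in SPF knockouts at 12 weeks. The part of smooth muscle or of any other cell type in the Cox7a1 values was not tested.

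**Figure D4:**
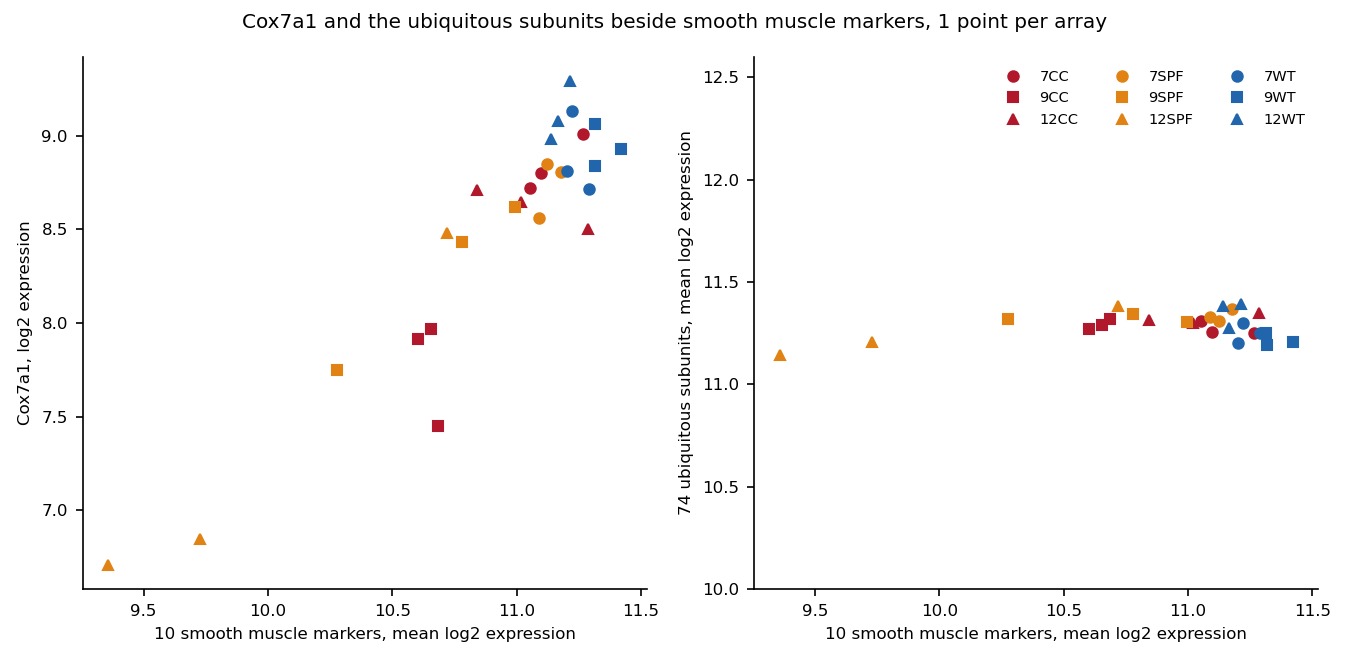
Cox7a1 (left) and the mean of the 74 ubiquitous subunits (right) against the mean of 10 smooth muscle markers, all in log2 expression, 1 point per array, coloured by kind of mouse and shaped by age. Arrays with low smooth muscle markers have low Cox7a1, down to 6.71 in an SPF knockout of 12 weeks, while the mean of the subunits stays between 11.14 and 11.39.

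The other 7 tissue isoforms read low. Cox7b2 averaged 2.77 over all arrays, Cox4i2, an isoform known to respond to low oxygen, 4.22, Ndufa4l2 4.70, Cox8b 4.85, Cox6a2 5.78, Cox6b2 6.09 and Cox8c 6.41. In conventional knockouts at 9 weeks and SPF knockouts at 12 weeks none of these was called, and the 95% interval reached from -0.20 to 0.30 and from 0.02 to 0.52 for Cox4i2, and from -0.31 to 0.25 and from -0.12 to 0.45 for Ndufa4l2. At such levels a probe set may report little of its transcript, so these intervals bound the signal only.

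Il10 lies on chromosome 1, as do the members Cox5b, Ndufa10, Ndufb3, Ndufs1, Sdhaf4 and Sdhc. Averaged over ages, Ndufa10, an accessory subunit of the complex I membrane arm, was higher by 0.23 ± 0.07 in conventional and 0.30 ± 0.07 in SPF knockouts (adjusted p = 0.0291 and 0.00268), the first called in 12 of the 18 fits that leave out 1 array. Sdhc was higher by 0.26 ± 0.07 and 0.34 ± 0.07 (adjusted p = 0.0199 and 0.00138), and its second probe set gave 0.18 and 0.26. The arrays of Ndufa10 read 10.80, 10.86 and 10.77 in conventional knockouts at 9 weeks and 10.75, 10.78 and 10.92 in SPF knockouts, against 10.46, 10.48 and 10.46 in wild types. Sdhaf4 was lower in SPF knockouts (-0.25 ± 0.10), with -0.15 (adjusted p = 0.0909) without wild-type replicate 2 of 12 weeks, and Cox5b, Ndufb3 and Ndufs1 were called in neither average.

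Within a kind of mouse, few members changed with age. In SPF knockouts 2 were higher and 12 lower at 12 than at 7 weeks, 14.9% of members beside 27.9% of all genes (13.8% higher and 14.1% lower). Cox7a1 fell by 1.39 ± 0.30, Ndufa1 fell by 0.50 ± 0.12 and Cox8a fell by 0.48 ± 0.11, and Ndufaf5 and Ndufaf4 rose by 0.60 ± 0.16 and 0.56 ± 0.19. Without SPF replicate 2 of 12 weeks the count was 28, against 4 without replicate 3 and 8 without replicate 1 of that age, and 6 and 7 without replicate 1 and 2 of 7 weeks. The fit on these 2 groups alone called 1.

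In conventional knockouts from 7 to 9 weeks, Cox7a1 fell by 1.07 ± 0.30 (adjusted p = 0.0254) and Ndufb7 rose by 0.31 ± 0.09 (adjusted p = 0.0242), with 10.4% of all genes called. From 9 to 12 weeks Ndufb7 fell again by 0.29 ± 0.09 (adjusted p = 0.045), with 7.34% of all genes called. These counts of 2 and 1 changed with single arrays. The first was 0 without conventional replicate 1 or 2 of 7 weeks or replicate 1 of 9 weeks, 1 without replicate 2 of 9 weeks and 4 without replicate 3 of 7 weeks. The second was 3 without replicate 3 of 9 weeks and 0 without any other array of the pair. No other age step within a kind of mouse called a member with limma: unadjusted p-values under 0.05 were found for 2 higher and 0 lower in conventional knockouts from 7 to 12 weeks (0% of all genes called), 1 and 4 in SPF knockouts from 7 to 9 weeks (0.726%), 3 and 9 from 9 to 12 weeks (0%), 0 and 1 in wild types from 7 to 9 weeks (0.0055%) and 18 and 2 from 7 to 12 weeks (0.121%). The shares of all genes at that unadjusted threshold were 5.85%, 15.2%, 18.9%, 3.99% and 14.5% in the same order. Without SPF replicate 2 of 12 weeks 15 were called in SPF knockouts from 9 to 12 weeks, and 3 without replicate 3 of 9 weeks. Wild types gave 3 from 7 to 12 weeks without replicate 1 of 12 weeks, and 2 and 3 from 9 to 12 weeks without replicate 1 and 3 of 12 weeks.

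Changes of the differences with age were tested as interaction terms. The difference between conventional and SPF knockouts changed from 9 to 12 weeks for 4 members upward and 3 downward, 7 of 94 beside 18.6% of all genes. Cox7a1 led upward (1.76 ± 0.42) and Ndufaf4 downward (-0.83 ± 0.27). The count was 20 without SPF replicate 2 of 12 weeks, and it lay between 3 and 11 without any other array of the 4 groups. The difference between conventional knockouts and wild types changed over these ages for Ndufb7 alone (-0.48 ± 0.12), beside 1.82% of all genes, and the count of 1 ran from 0 to 7 as single arrays were left out (7 without conventional replicate 3 of 9 weeks). From 7 to 9 weeks limma called 0 members: before adjustment, conventional knockouts against wild types gave 5 higher and 2 lower (2.01% of all genes called), SPF knockouts against wild types 1 and 1 (0%), and conventional against SPF knockouts 2 and 0 (0.0934%). Before adjustment these held 18.7%, 7.41% and 7.25% of all genes.

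Genes that act beside the subunits were read from lists outside the naming rule. Among 37 measured partners and assembly factors of other names, 10 were higher and 0 lower in conventional knockouts at 9 weeks, 6 and 0 in SPF knockouts at 9 weeks, and 3 and 4 in SPF knockouts at 12 weeks, with medians of 0.12, 0.18 and -0.03. The background of calls in these comparisons was 24%, 11.8% and 34.8% of all genes, and the same shares apply to the lists that follow. The complex I assembly factor Ecsit rose by 0.48 ± 0.11, 0.46 ± 0.11 and 0.30 ± 0.11 in these comparisons. In the last, SPF replicate 2 (7.06) lay below wild-type replicate 1 (7.12). Cox18, an insertase for a complex IV subunit, rose by 0.67 ± 0.18, 0.55 ± 0.18 and 0.96 ± 0.18. Its wild types of 12 weeks read 7.37, 6.58 and 7.29, so replicate 2, the array with the largest actin gap, was lowest. Cox10, which makes the heme of complex IV, rose by 0.46 ± 0.12 in conventional knockouts at 9 weeks and by 0.51 ± 0.12 in SPF knockouts at 12 weeks. Uqcc3 and Higd2a, which act on complexes III and IV, were lower in SPF knockouts at 12 weeks (-0.39 ± 0.12 and -0.42 ± 0.15). Higd2a read 11.13, 11.58 and 10.69 there against 11.71, 11.38 and 11.56 in wild types, so the groups overlapped.

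The citric acid cycle, which feeds the chain, was divided as well. Of 21 genes measured, 3 were higher and 2 lower in conventional knockouts at 9 weeks, and 3 higher and 7 lower in SPF knockouts at 12 weeks (medians -0.02 and -0.15). Pyruvate carboxylase, Pcx, fell by 1.37 ± 0.34 in the former. In the latter Pdk2, a kinase that switches off pyruvate dehydrogenase, fell by 1.35 ± 0.33 and Pdha1, a subunit of that enzyme, fell by 0.37 ± 0.09. Pdk2 read 5.21, 6.84 and 5.36 against 7.64, 6.46 and 7.34 in wild types, so SPF replicate 2 lay among the wild types. Dlst, a subunit of the oxoglutarate dehydrogenase, rose by 0.38 ± 0.10 and 0.39 ± 0.10.

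Regulators of mitochondrial genes went both ways, some by more than 1 log2 unit. Of 27 measured, 3 were higher and 7 lower in conventional knockouts at 9 weeks, and 8 higher and 7 lower in SPF knockouts at 12 weeks. Ppargc1a, the coactivator known for driving mitochondrial biogenesis, read 7.67, 8.43 and 9.07 in conventional knockouts at 9 weeks against 10.17, 10.09 and 9.52 in wild types (-1.54 ± 0.45, adjusted p = 0.0155). In SPF knockouts at 12 weeks it read 7.26, 9.22 and 7.42 against 9.74, 9.24 and 9.33 (-1.47 ± 0.45, adjusted p = 0.0132), with replicate 2 just below the lowest wild type. The nuclear receptor Esrrg was lower in both (-1.92 ± 0.40 and -1.29 ± 0.40), as was Gabpa, an ETS-type factor (-0.54 ± 0.10 and -0.37 ± 0.10). At 12 weeks Esrrg overlapped, with 4.11, 6.07 and 5.17 in SPF knockouts against 5.75, 6.75 and 6.72. Myc rose by 0.86 ± 0.20 and 1.24 ± 0.20. SPF knockouts at 9 weeks were also higher for Myc, at 7.66, 7.41 and 7.58 against 7.00, 6.81 and 6.48 in wild types (0.78 ± 0.20, adjusted p = 0.0137), while their Ppargc1a difference was not called (adjusted p = 0.144).

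Named here after their values were seen, Nrf1 rose by 0.51 ± 0.13 in SPF knockouts at 12 weeks (adjusted p = 0.00448), Esrra rose by 0.33 ± 0.08 there, and Tfam, which packs and transcribes mitochondrial DNA, differed by -0.07 ± 0.08 and was not called. The receptor Ppara fell by 2.45 ± 0.50 and the polymerase subunit Polg2 fell by 1.08 ± 0.20 in SPF knockouts at 12 weeks. Ppargc1a is also among the brown fat markers above and is expressed by muscle and epithelium, and its cell source was not tested.

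Glycolysis, the route to ATP outside mitochondria, had more genes higher than lower. Of 17 genes measured, 7 were higher and 2 lower in conventional knockouts at 9 weeks and 10 higher and 3 lower in SPF knockouts at 12 weeks, with medians of 0.31 and 0.43 against 0.00 and 0.02 for all genes. Hexokinase 2, Hk2, rose by 1.40 ± 0.22 and 1.90 ± 0.22 (adjusted p = 0.000187 and 5.57e-06), the phosphofructokinase Pfkp by 0.82 ± 0.14 and 0.80 ± 0.14, and the lactate exporter Slc16a3 by 1.57 ± 0.35 and 2.08 ± 0.35. In SPF knockouts at 9 weeks Hk2 read 10.82, 10.67 and 11.34 against 9.91, 9.99 and 9.79 in wild types (1.04 ± 0.22, adjusted p = 0.00488). Slc16a1, a carrier that takes butyrate and lactate into cells, was lower in both (-0.91 ± 0.13 and -0.55 ± 0.13). All 11 macrophage and monocyte markers were higher in both comparisons, with medians of 1.58 and 1.72, and their part in the glycolysis values was not tested.

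**Figure D5:**
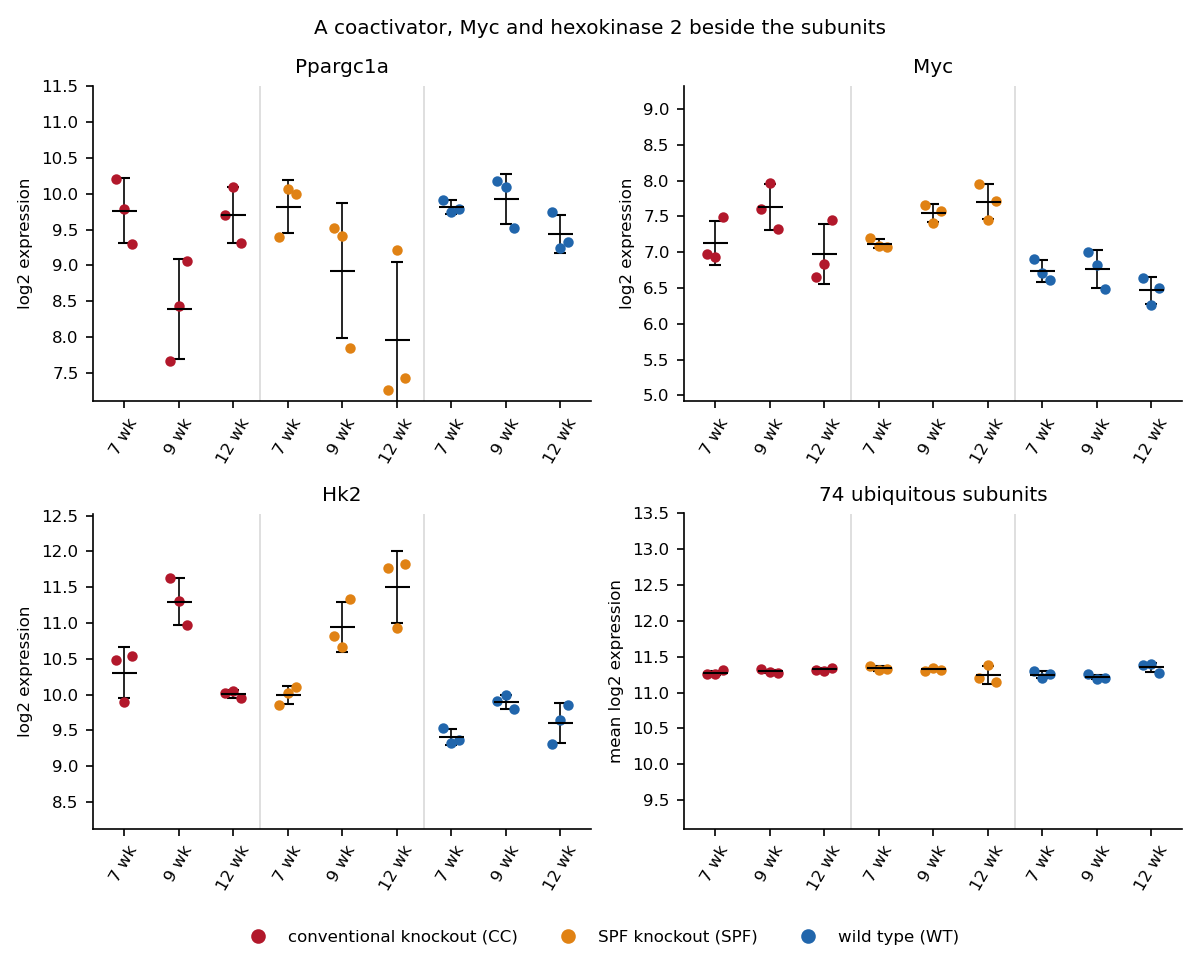
Log2 expression of Ppargc1a, Myc and Hk2 and the mean of the 74 ubiquitous subunits in all 27 arrays, each vertical axis spanning 4.4 log2 units. Points are arrays, bars are group means and lines are SDs (n = 3). Ppargc1a is low and Myc and Hk2 are high in conventional knockouts at 9 weeks and SPF knockouts at 12 weeks, Myc and Hk2 are also above wild types in SPF knockouts at 9 weeks, and the mean of the subunits lies between 11.14 and 11.39 in every array.

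Antioxidant and uncoupling genes of mitochondria were mixed, with 2 higher and 2 lower of 15 measured in conventional knockouts at 9 weeks and 3 higher and 4 lower in SPF knockouts at 12 weeks. In the latter the outer membrane channel Vdac3 fell by 0.83 ± 0.12, the transhydrogenase Nnt fell by 0.63 ± 0.14, and the thioredoxin Txn2 rose by 0.49 ± 0.11. Some epithelial markers were lower in the same mice. Of 11 for colonocytes, 5 were called lower and 0 higher, with a median of -0.11. Of 8 for goblet cells, 4 were called lower and 0 higher, with a median of -0.52. Of all genes 34.8% were called there, 16.6% lower. The mean of the colonocyte markers read 10.86, 11.87 and 10.28 in SPF knockouts against 11.67 to 11.94 in wild types of 12 weeks. SPF replicate 2, the highest of the 3 in subunits, was also the highest in colonocyte markers. The part of the epithelium in the subunit values was not tested.

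Some members could not be read in this way. The symbols Ndufa11, Ndufa11b, Ndufs6, Ndufs6b, Ndufb4b, Ndufb4c, Ndufab1-ps and Ndufs5-ps stand only on probe sets that carry several symbols and were left out. Ndufb4 itself has a probe set of its own, but it averaged 3.20, near the bottom of the scale, whereas sets shared with its copies are bright, so its values here bear little weight. Near-identical copies may share signal on these sets. With limma over all probe sets but controls, 1 shared Ndufb4 set was lower in SPF knockouts at 12 weeks (-0.48, adjusted p = 0.0181). The other differed by -0.28 there (adjusted p = 0.0513) and by -0.18 averaged over ages (adjusted p = 0.0299). A dim shared Ndufa11 set was lower in conventional knockouts at 9 weeks (-0.47, adjusted p = 0.0318), whereas the brighter one differed by 0.23 (adjusted p = 0.125). Among the 94 members, 53 have more than 1 probe set, and the set used was the brightest.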

How the data were processed

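The deposited values are log2 expression of 45101 probe sets on 27 Affymetrix arrays, normalized by the authors with affyPLM per the labels' protocols. Its version, background step and summary are not stated there. A rat array is named in the design, whereas the probe set names belong to a mouse array. Control probe sets (64), those with several symbols (932) and those with none (9160) were left out. Of the remaining 34945, the brightest per gene was kept, which gave 18193 genes. Members and gene lists were chosen with earlier results of these data known.

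Group means were fitted to all 27 arrays with limma 3.58.1 (lmFit and eBayes, two-sided moderated test, 18 residual degrees of freedom) in R 4.3.3, and p-values were Benjamini-Hochberg adjusted over all genes of a comparison. The fit was first tried on simulated arrays with independent noise and changes larger than nearly all differences of members. That trial does not show how well smaller differences are recovered. With 3 arrays per group, the median 95% interval of a difference between groups reached 0.225 log2 units either way. Named members were the 8 largest called rises and falls per comparison whose arrays did not overlap (in averages, 8 or more of the 9 arrays past the median opposite), the 3 largest per change between neighbouring ages, the brightest per complex, every tissue isoform with its partner, every chromosome 1 member, and up to 3 called genes per list. Others were named after their values were seen. Alternatives were a second quantile normalization, centring of arrays, leaving out dim genes, averaging all probe sets of a gene, array weights, an intensity trend, a replicate block, fits on the groups compared alone and leaving out each array. Calls of list genes are given from the fit to all 27 arrays only.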

Additional observations from a re-analysis of the deposited data

Results flagged for a closer look

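In 8 cases a member's difference between kinds of mice changed with age by a test of the change itself (limma's interaction term, adjusted over all genes). From 9 to 12 weeks the difference of conventional from SPF knockouts moved upward for Cox7a1 by 1.76 ± 0.42 (log2 ± SE, adjusted p = 0.00786), for Ndufa1 by 0.70 ± 0.17 (adjusted p = 0.00881), for Ndufb5 by 0.46 ± 0.16 (adjusted p = 0.0456) and for Ndufa3 by 0.42 ± 0.15 (adjusted p = 0.0491). At 9 weeks these 4 differed by -0.49, -0.17, -0.15 and -0.10, none of them called, and at 12 weeks all 4 were higher in conventional knockouts. It moved the other way for Ndufaf4 (-0.83 ± 0.27, adjusted p = 0.0349), Ndufb1 (-0.70 ± 0.17, adjusted p = 0.00881) and Sdhaf1, a complex II assembly factor (-0.52 ± 0.17, adjusted p = 0.0326). These 7 were 4 higher and 3 lower of 94 members, while 18.6% of all genes were called. The count lay between 3 and 4 without SPF replicate 1 or 2 of 9 weeks, conventional replicate 1 of 9 weeks, any conventional array of 12 weeks or SPF replicate 1 or 3 of 12 weeks. It was 20 without SPF replicate 2 of 12 weeks and 11 without SPF replicate 3 of 9 weeks, and Ndufa3 changed by 0.28 (adjusted p = 0.181) without SPF replicate 3 of 12 weeks. The difference of conventional knockouts from wild types changed over the same ages for 1 member, Ndufb7 (-0.48 ± 0.12, adjusted p = 0.0474), beside 1.82% of all genes. That count of 1 was 7 without conventional replicate 3 of 9 weeks, 3 and 5 without wild-type replicate 1 and 3 of 12 weeks, and 0 without any other array of these groups.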

How the results depend on the processing

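No value of the 67 named results (27 genes) turned its sign in 1214 settings. Most were picked as called with arrays apart, so leaving out 1 array could hardly turn a sign. The replicate block, the intensity trend and the fits on the groups compared alone keep each difference and change only its error. The absence of turned signs is therefore no evidence of stability. The call held in every setting for 15 and was lost in at least 1 for the other 52: 31 calls were lost when only the groups compared were fitted, 17 when all probe sets of a gene were averaged, 10 with the replicate block, 6 with arrays centred, 4 with quantile normalization again and 1 with array weights. Array weights gave more members called: 33 in conventional knockouts against wild types at 9 weeks, 41 in SPF knockouts at 9 weeks, 30 between knockouts at 12 weeks, 26 in the average of conventional knockouts, 3 in the average between knockouts, 1 in conventional knockouts at 7 weeks and 8 between knockouts at 9 weeks. With age they gave 15 and 14 in conventional knockouts (7 to 9 and 9 to 12 weeks) and 8, 28 and 32 in SPF knockouts (7 to 9, 9 to 12 and 7 to 12 weeks). For the changes of differences they gave 6 and 7 (conventional against wild type), 20 (SPF against wild type from 9 to 12 weeks), and 2 and 39 (between knockouts). Fits on the groups compared alone, with fewer arrays to estimate the spread, called 3 in SPF knockouts at 9 weeks, 0 at 12 weeks, 0 between knockouts at 12 weeks, 4 and 2 in conventional knockouts with age, 1 in SPF knockouts from 7 to 12 weeks, and 3 and 0 for changes of differences.

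The replicate block called 7 in SPF knockouts at 9 weeks and 0 for both the step from 9 to 12 weeks in conventional knockouts and the change of their difference from wild types, and moved no other count by over 1.5 times. Over 27 same-numbered pairs the correlation of deviations from the group mean lay between -0.44 and 0.26, with 4 over 0.1. With 3 arrays per group this cannot show whether same-numbered arrays belong together, and the labels do not say what the numbers mean. In conventional knockouts from 7 to 9 and 9 to 12 weeks, a second quantile normalization called 4 and 2, and leaving out the dimmest 40% of genes called 4 and 3. The single call in the change of their difference from wild types became 0 with quantile normalization, centred arrays or the mean of probe sets, 4 without dim genes, 2 with an intensity trend and 7 with array weights. The cause of these moves was not tested.

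Leaving out 1 array at a time gave 4 to 21 calls in conventional knockouts against wild types at 9 weeks and 0 to 4 at 12 weeks, 0 to 9 and 11 to 38 in SPF knockouts at 9 and 12 weeks, 1 to 27 between knockouts at 12 weeks, and 5 to 14, 18 to 26 and 0 to 3 in the averages of conventional knockouts, of SPF knockouts and between them. With age it gave 0 to 4 and 0 to 3 in conventional knockouts (7 to 9 and 9 to 12 weeks), 0 to 15 and 4 to 28 in SPF knockouts (9 to 12 and 7 to 12 weeks), and 0 to 3 in wild types for both steps that end at 12 weeks. Changes of differences gave 0 to 1 and 0 to 7 (conventional against wild type), 0 to 17 (SPF against wild type from 9 to 12 weeks) and 3 to 20 (between knockouts from 9 to 12 weeks). The mean of the 74 subunits moved with the scale: with the mean of probe sets it lay between 10.29 (wild types, 9 weeks) and 10.41 (wild types, 12 weeks), and without the dimmest 40% of genes the same groups read 11.33 and 11.46.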
